A study of Mus musculus with 48 samples.

Results

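Tumors of 3 WT mice that received anti-PD-1 were compared with tumors of 3 untreated WT mice, all collected 6 h after treatment began. These 6 RNA libraries are part of a series of 48 and were chosen by their titles. Every mouse was a C57BL/6J animal that carried B16-D5, a subclone of a transplanted mouse melanoma line, as a subcutaneous tumor for 8 days before treatment, and each library came from the whole tumor of 1 mouse. The antibody dose was 250 µg in 200 µL of PBS, given once to the 6 h group. The untreated mice received no antibody, so 3 tumors of mice given control IgG at the same time are set beside the comparison. The treatment field of the labels reads Ctrl for all 3 anti-PD-1 tumors as well as for the 3 untreated ones, and the time field reads 0hrs for 1 of the 3 untreated tumors, so the groups rest on the titles alone. PD-1 is a receptor that restrains activated T cells when it binds PD-L1. Interferon, antigen presentation and T cell genes were among the gene lists described. All lists were chosen with earlier results of these data known, so counts of their members describe the data and test nothing. Total counts on genes ranged from 30148778 to 40638277. A gene with 0 counts may have had up to 3, which was at most 0.0941 CPM (counts scaled to the TMM-adjusted library total, counting error only) in these 6 libraries.

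IFN-γ is secreted by activated T cells and natural killer cells and acts through the receptor chains Ifngr1 and Ifngr2, and many genes it induces carry a short palindrome called GAS. Genes induced by type I interferons often carry a different element, ISRE. Irf1 and Socs1 are an activator and an inhibitor induced by this pathway, and the immunity-related GTPases and guanylate-binding proteins are its most strongly inducible effectors in mouse cells, where they attack vacuoles that hold pathogens. The 120 bases before the start of transcription are given for 6 of these genes, in which anti-PD-1 replicate 5 was the highest and replicate 1 the second of the 6 tumors, from the RefSeq promoters of GRCm38.p6, on the strand of the gene, with matches to GAS (TTCNNNGAA, the same on both strands) and ISRE (a TTTC, any 2 bases and a TTTC, or on the other strand a GAAA, any 2 bases and a GAAA) in capitals.
Irf1 (chr11:53769894-53770013, + strand): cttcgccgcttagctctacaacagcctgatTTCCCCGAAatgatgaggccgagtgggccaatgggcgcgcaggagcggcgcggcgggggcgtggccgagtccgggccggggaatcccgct
Socs1 (chr16:10785537-10785656, - strand, where 2 ISRE matches overlap): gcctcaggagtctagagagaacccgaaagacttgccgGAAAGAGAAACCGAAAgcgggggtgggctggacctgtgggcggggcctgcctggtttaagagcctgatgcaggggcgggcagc
Igtp (chr11:58199436-58199555, + strand): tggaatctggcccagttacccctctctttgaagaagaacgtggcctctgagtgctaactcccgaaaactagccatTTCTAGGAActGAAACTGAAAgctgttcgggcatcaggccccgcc
Irgm2 (chr11:58214857-58214976, + strand): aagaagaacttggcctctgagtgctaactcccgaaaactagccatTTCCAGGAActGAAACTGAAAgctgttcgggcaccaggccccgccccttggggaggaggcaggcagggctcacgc
Tgtp2 (chr11:49064213-49064332, - strand): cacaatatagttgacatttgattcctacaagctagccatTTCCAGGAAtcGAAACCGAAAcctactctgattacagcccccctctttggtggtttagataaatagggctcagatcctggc
Ifit1 (chr19:34640769-34640888, + strand): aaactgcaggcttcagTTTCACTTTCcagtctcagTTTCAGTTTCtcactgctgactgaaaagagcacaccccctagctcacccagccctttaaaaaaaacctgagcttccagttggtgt

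In Igtp, Irgm2 and Tgtp2, which encode immunity-related GTPases, a GAS match was followed by an ISRE match that started 11 bases further on. Of the 10 immunity-related GTPases, 7 had a promoter in the table, taken from 250 bases before to 50 after the start, and 5 of these 7 (71.4%) held both elements. Among all 27025 genes with a promoter, 9.55% held GAS, 3.99% held ISRE and 0.614% held both. Of the guanylate-binding proteins, 5 of 11 had a promoter, and all 5 held ISRE and 2 held GAS. Ifit1, a type I interferon-stimulated gene that binds foreign RNA, held 2 ISRE matches and 0 GAS matches. These matches describe the letters and show no binding.

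No gene passed the test across all genes. Of 26848 genes tested with edgeR's quasi-likelihood test, 0 (0% of those tested) had an adjusted p under 0.05. At an unadjusted p under 0.05, 573 genes (2.13%) were higher after anti-PD-1 and 313 (1.17%) were lower, and the median log2 fold change of all genes was -0.02. By direction alone, 12154 of the 26848 genes were higher and 13989 were lower. In 718 genes (2.67%) all 3 anti-PD-1 tumors lay above all 3 untreated ones, and in 787 (2.93%) they all lay below. All of the 573 higher genes had their highest level in a treated tumor, which the selection favors, and this was anti-PD-1 replicate 5 in 335 of them (58.5%), replicate 3 in 174 and replicate 1 in 64. Interferon-inducible genes and genes of the skin and hair follicle are described in turn.

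The test without a filter on low counts gave 75 genes at an adjusted p under 0.05, which is 0.152% of the 49294 genes it covered. All 75 were higher after anti-PD-1, and in all 75 replicate 5 was the highest of the 6 tumors. They held 32 keratins and keratin-associated proteins and 19 genes of the interferon, antigen presentation and checkpoint lists. In all 19 of these, replicate 1 too lay above every untreated tumor, whereas in the keratin group it did so in 5 of 32. Replicate 3 lay above every untreated tumor in 3 of the 19 and in 5 of the 32. Since 73 of the 75 genes had passed the filter and had an adjusted p of 1 with it, these calls rest on the setting.

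**Figure D1:**
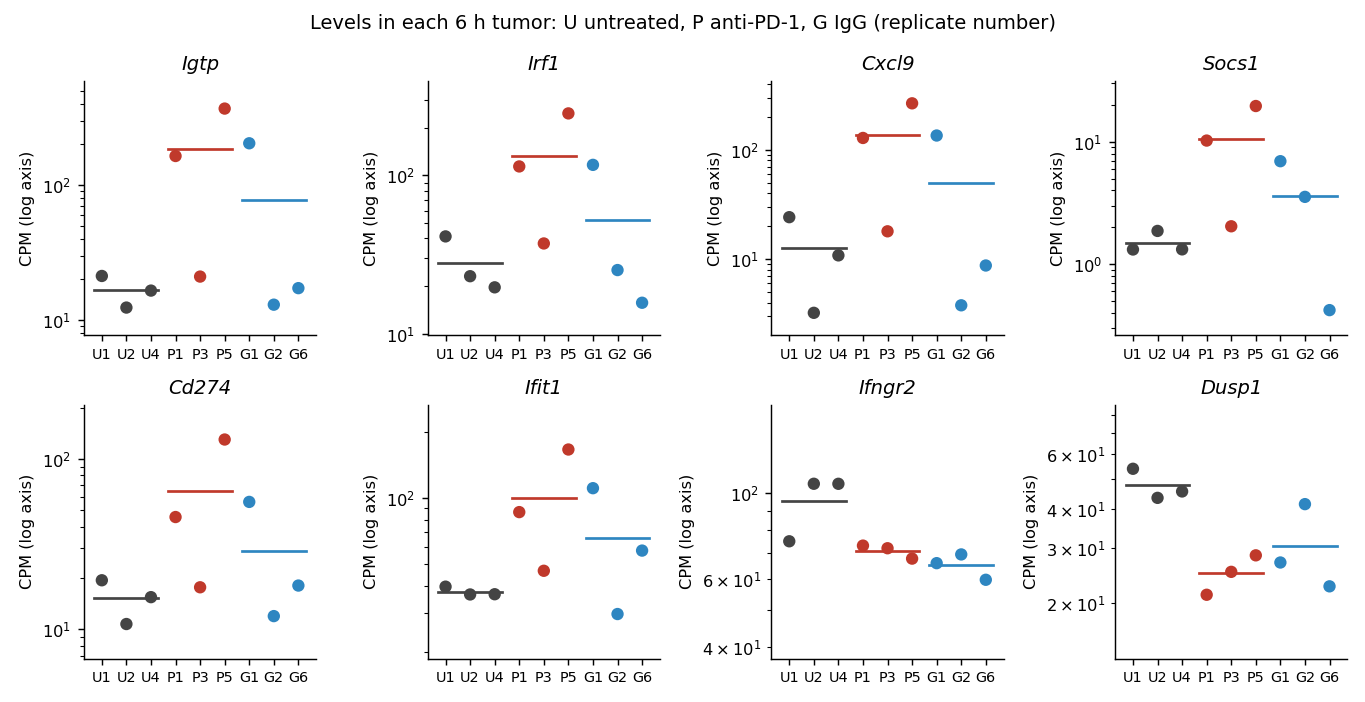
Level of 8 genes in CPM (log axis) in each 6 h tumor, with 3 untreated (U), 3 anti-PD-1 (P) and 3 IgG (G) tumors marked by replicate number and the mean of each group as a line. For Igtp, Irf1, Cxcl9, Socs1 and Cd274 the tumors P1, P5 and G1 lie above the other 6, while Ifngr2 and Dusp1 are lower in all 3 anti-PD-1 tumors than in all 3 untreated ones.

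The immunity-related GTPases differed more than any other list among the interferon lists. Igtp had 164, 20.95 and 368 CPM in anti-PD-1 replicates 1, 3 and 5, and 21.2, 12.3 and 16.5 CPM in untreated replicates 1, 2 and 4. Replicates 1 and 5 were far above the untreated tumors, and replicate 3 lay among them. The log2 fold change of Igtp was 3.47 (standard error 1.23, unadjusted p = 0.0093, adjusted p = 1 from edgeR), and it was 2.47 without replicate 5. Iigp1, which coats parasite vacuoles, showed the same order, with 316, 40.1 and 873 CPM after anti-PD-1 and 54.5, 23.8 and 24.6 CPM without treatment. Irgm1, a regulator of this family, had 237, 74.0 and 407 CPM against 81.1, 63.3 and 76.7 CPM. Its log2 fold change of 1.70 was the smallest of the 10 members, and that of Gm4841, 5.68, was the largest. All 10 members were higher after anti-PD-1 at an unadjusted p under 0.05, where 2.13% of all genes were. Their median log2 fold change was 3.27, against -0.02 over all genes tested. Without replicate 5 all 10 were still higher, with a median of 2.21, but 2 had an unadjusted p under 0.05, and without untreated replicate 2 this number was 5. In 0 of the 10 did the groups fail to overlap, because replicate 3 lay within the untreated range in all 10. Tgtp2 and its neighbor Tgtp1 are near-identical copies, and Gm12250 overlaps Olfr56, so the counts of these genes may be divided among them.

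The guanylate-binding proteins, a second family of interferon-inducible GTPases, were also higher in mean level in anti-PD-1 replicates 5 and 1 than in the other 4 of the 6 tumors. Gbp2 had 129, 18.6 and 316 CPM in the treated tumors and 26.2, 7.28 and 9.33 CPM in the untreated ones. Gbp7 had 158, 41.8 and 331 CPM against 56.1, 28.3 and 33 CPM, and Gbp3 had 76.8, 22.7 and 140 CPM against 30.6, 17.7 and 18.6 CPM. Again replicate 3 fell between the untreated tumors. All 11 members were higher, 8 at an unadjusted p under 0.05, where 2.13% of all genes were, with a median log2 fold change of 2.87. Without replicate 5 the median became 1.77, 9 members were higher and 2 lower, and 0 had an unadjusted p under 0.05, whereas 4 and 3 had one without untreated replicate 2 or 4. Gbp11, the 1 member whose groups did not overlap, was near the limit of detection in replicate 3, with 0.439 CPM against 0.112 to 0.314 CPM in untreated tumors. Over all genes, 2.67% had all 3 anti-PD-1 tumors above all 3 untreated ones. Members of this family are similar in sequence, so single members are less certain than the family.

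Upstream of these effectors, the ligand was detected in the same tumors. Ifng had 62, 0 and 130 counts in anti-PD-1 replicates 1, 3 and 5 and 3, 0 and 0 counts in the untreated tumors, so replicate 3 and all untreated tumors lay at or under the limit of detection. Ifnb1, which encodes interferon beta, had 0 counts in all 6 libraries. The receptor chains did not share this pattern. Ifngr1 had 37.6, 30.1 and 40.7 CPM after anti-PD-1 and 41.8, 29.97 and 26.8 CPM without it, which overlap. Ifngr2 was lower in all 3 treated tumors, with 73.1, 72.0 and 67.7 CPM against 75.0, 106 and 106 CPM. Its log2 fold change was -0.43 (standard error 0.15, unadjusted p = 0.0082, adjusted p = 1 from edgeR) and lay between -0.53 and -0.34 whichever tumor was left out. Ifngr2 is among the genes named below for having no overlap between groups, so leaving out 1 tumor could hardly reverse its direction. Untreated replicate 1 was close to the treated tumors in this gene.

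Among the signal transducers and transcription factors, Irf1 had 114, 37.2 and 246 CPM after anti-PD-1 and 41.2, 23.1 and 19.7 CPM without treatment. Replicate 3 therefore lay below untreated replicate 1. The log2 fold change of Irf1 was 2.24 (standard error 0.82, unadjusted p = 0.012, adjusted p = 1 from edgeR) and 1.43 without replicate 5. Socs1, which blocks JAK kinases, had 10.2, 2.04 and 19.6 CPM against 1.32, 1.87 and 1.32 CPM, so that its groups did not overlap. Its log2 fold change was 2.82 (standard error 0.84, unadjusted p = 0.0024). Nlrc5, the activator of MHC class I genes, had 136, 49.5 and 300 CPM against 110, 46.6 and 45.5 CPM, and here untreated replicate 1 stood nearly as high as anti-PD-1 replicate 1. Jak1, a kinase of the receptor, had 105 to 125 CPM after anti-PD-1 and 97.7 to 128 CPM without it. Of the 17 genes of the IFN-γ signaling list, 15 were higher, and the median log2 fold change was 0.53. At an unadjusted p under 0.05, 6 were higher and 1 (Ifngr2) lower, where 2.13% and 1.17% of all genes were. Without replicate 5 the median was 0.18, and 1 gene was higher and 1 lower at that threshold, while 2 were higher without untreated replicate 2 or 4 and 10 without untreated replicate 1.

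Cxcl9 and Cxcl10, chemokines that attract T cells through the receptor Cxcr3, followed the GTPases. Cxcl9 had 129, 17.97 and 267 CPM in the treated tumors and 24.2, 3.22 and 10.8 CPM in the untreated ones. For Cxcl9 the log2 fold change was 3.44 (standard error 1.28, unadjusted p = 0.013, adjusted p = 1 from edgeR). Cxcl10 had 565, 150 and 994 CPM against 125, 201 and 183 CPM. In both genes replicate 3 lay within the untreated range. Cxcr3 itself, a T cell receptor for these ligands, had 3.42, 1.13 and 2.86 CPM against 2.76, 2.14 and 3.37 CPM and showed no such order.

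Antigen presentation genes differed less. H2-K1, a classical class I heavy chain, had 363, 246 and 565 CPM after anti-PD-1 and 379, 184 and 181 CPM without it. B2m, the light chain, had 6220, 3868 and 7263 CPM against 5152, 4101 and 4238 CPM. Tap1, a subunit of the peptide transporter, had 101, 42.6 and 165 CPM against 71.5, 38.6 and 32.6 CPM. In these genes untreated replicate 1 stood above the other untreated tumors, and the groups overlapped. All 19 genes of MHC class I and peptide loading were higher, with a median log2 fold change of 0.76. That median was 1.08 at most and 0.35 at least when 1 tumor was left out. At an unadjusted p under 0.05, 0 were higher, where 2.13% of all genes were. This number was 11 without a filter on low counts and 5 with the 6 libraries alone. It was 8 without anti-PD-1 replicate 3 and 4 without untreated replicate 1. MHC class II genes, which antigen-presenting cells express, had no direction. H2-Ab1 had 139, 122 and 277 CPM after anti-PD-1 and 366, 107 and 104 CPM without it, so untreated replicate 1 was the highest of the 6 tumors. The median over the 9 class II genes was -0.02, and it became 0.85 when untreated replicate 1 was left out and -0.51 when anti-PD-1 replicate 5 was.

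The type I interferon-stimulated genes, whose products mostly act against viruses, differed by less than the GTPase families. Ifit1 had 86.6, 46.8 and 167 CPM after anti-PD-1 and 39.6, 36.5 and 36.6 CPM without it. All treated tumors were above all untreated ones, and the log2 fold change was 1.42 (standard error 0.46, unadjusted p = 0.0052, adjusted p = 1 from edgeR). Eif2ak2, the kinase PKR that halts translation on double-stranded RNA, had 146, 127 and 202 CPM against 96.2, 98.8 and 104 CPM. Its log2 fold change was 0.67, and it was 0.46 without replicate 5. Ifit3b had 10.2, 3.73 and 22.5 CPM against 3.11, 1.27 and 2.36 CPM, and its log2 fold change was 2.43 (unadjusted p = 0.0014), although Ifit3 is a near copy that may share its reads. Isg15, a ubiquitin-like modifier, had 96.8, 74.4 and 168 CPM against 47.1, 63.7 and 72.0 CPM. Bst2, which tethers budding virus and was among the 3 most abundant members by CPM, had 611, 430 and 589 CPM against 395, 408 and 428 CPM. All 38 members were higher, 20 at an unadjusted p under 0.05, where 2.13% of all genes were. In 9 of the 38 the groups did not overlap, all with anti-PD-1 higher, where 2.67% of all genes did so. Their median log2 fold change was 0.78. Without replicate 5 it was 0.37, 35 members were higher and 3 lower, and 1 had an unadjusted p under 0.05, and this number was 7 without untreated replicate 2, 10 without untreated replicate 4 and 7 with a replicate block.

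**Figure D2:**
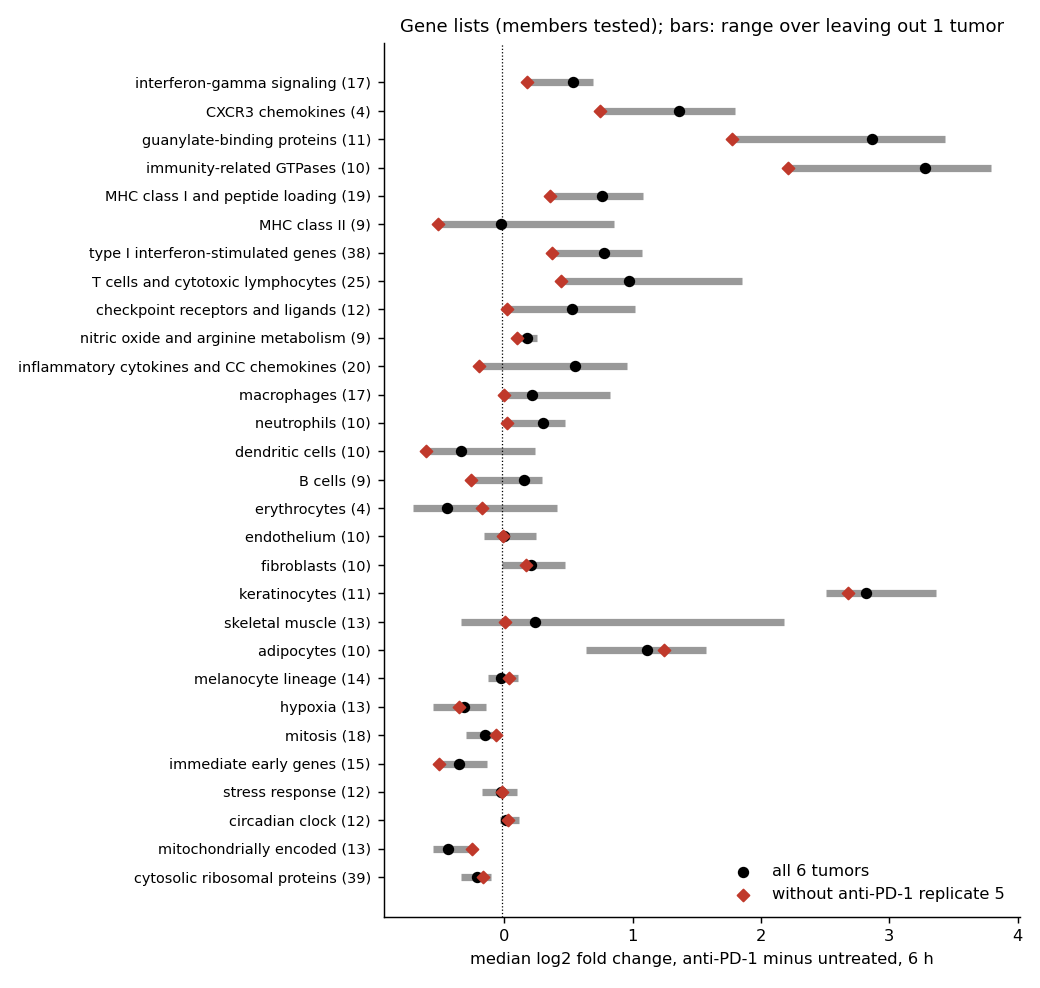
Median log2 fold change (anti-PD-1 minus untreated at 6 h) of each gene list, with the number of members tested in parentheses, as black points for all 6 tumors and red diamonds without anti-PD-1 replicate 5, and with grey bars for the range when each tumor in turn was left out. The dotted line is the median of all genes tested, and the immunity-related GTPases, guanylate-binding proteins and keratinocyte markers lie farthest from it at 3.27, 2.87 and 2.82.

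T cell and cytotoxic genes had low levels and a wide spread. Cd3e, part of the T cell receptor complex, had 13.98, 3.07 and 16.2 CPM after anti-PD-1 and 8.31, 3.36 and 3.09 CPM without it. Gzma, a granzyme of killer cells, had 9.17, 3.42 and 15.3 CPM against 7.40, 2.84 and 3.03 CPM. In both, anti-PD-1 replicate 3 was close to untreated replicates 2 and 4, and untreated replicate 1 was close to anti-PD-1 replicate 1. Cd8a had 0.920, 0.439 and 3.66 CPM against 0.878, 0.352 and 0.112 CPM, which is 14 to 128 counts in the treated tumors. All 25 genes of the list were higher (17 without replicate 5). At an unadjusted p under 0.05, 0 were higher (9 without untreated replicate 1), where 2.13% of all genes were. The median log2 fold change was 0.97. That median was 1.85 with untreated replicate 1 left out, 0.44 with anti-PD-1 replicate 5 left out and 0.15 when the 3 untreated tumors of 0 h were added to the control. In whole tumors, more T cells and more RNA per T cell cannot be told apart.

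Of the checkpoint genes, Cd274, which encodes the ligand PD-L1, had 45.6, 17.7 and 130 CPM after anti-PD-1 and 19.4, 10.7 and 15.5 CPM without it. Replicate 3 lay between untreated replicates 1 and 4. The log2 fold change was 2.08 (standard error 0.78, unadjusted p = 0.013, adjusted p = 1 from edgeR), and Cd274 was the 1 gene of 12 in the list with an unadjusted p under 0.05, which it did not have without replicate 5. Of all genes, 2.13% were higher at that threshold. Pdcd1, the gene for PD-1 itself, had 0.434, 0.753 and 0.915 CPM against 0.376, 0.325 and 0.141 CPM. These groups did not overlap, but the levels were low and the log2 fold change of 1.31 had a standard error of 1.10. Pdcd1lg2, the second ligand, had 3.25, 1.66 and 6.402 CPM against 4.05, 1.44 and 2.33 CPM. Tnfrsf9, a costimulatory receptor that was the second most abundant of the list by CPM, had 12.3, 44.7 and 37.2 CPM against 52.4, 30.8 and 23.7 CPM and so did not follow Cd274. Nos2, the inducible nitric oxide synthase, had 1.61, 1.47 and 3.77 CPM against 2.07, 1.98 and 1.24 CPM, and the groups overlapped. Arg1, which competes with it for arginine, had 2.76, 6.27 and 3.52 CPM against 1.13, 2.95 and 2.33 CPM, and its log2 fold change was 0.96 (standard error 0.94). Over the 9 genes of nitric oxide and arginine metabolism the median log2 fold change was 0.18. The second arginase Arg2 was the 1 gene higher at an unadjusted p under 0.05, where 2.13% of all genes were. Arg2 had 0, 14 and 7 counts against 0 counts in all 3 untreated tumors, so it was near the limit of detection.

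By a rule that takes the smallest p among protein-coding genes with a mean of at least 1 CPM and no overlap between groups, 12 genes were named in each direction. Because of this rule, leaving out 1 tumor could hardly reverse their direction. Ifit3b, Socs1, Ifit1 and Eif2ak2 were among the 12 that were higher. Clcn2, a chloride channel, had a narrow spread, with 5.14, 5.02 and 5.46 CPM after anti-PD-1 and 3.51, 2.46 and 2.08 CPM without it. Its log2 fold change was 0.95 (standard error 0.31, unadjusted p = 0.0055, adjusted p = 1 from edgeR) and lay between 0.79 and 1.24 whichever tumor was left out. Soat2, which esterifies cholesterol, had 1.56, 1.5997 and 2.89 CPM against 0.690, 0.542 and 0.337 CPM, and Tagap, a GTPase-activating protein of T cells, had 2.81, 1.66 and 6.20 CPM against 0.910, 0.839 and 0.534 CPM. The remaining 5 genes, Psors1c2, Sp6, Krt75, S100a3 and Cpm, were high in replicate 5 alone. Psors1c2 had 34, 8 and 2278 counts after anti-PD-1 and 3, 0 and 1 counts without it, and the other 4 had 8.32 to 38.01 CPM in replicate 5 and at most 1.41 CPM in the other 5 tumors.

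Lower genes had smaller differences and a narrower spread. Dusp1, an early-response phosphatase that switches off MAP kinases, had 21.3, 25.2 and 28.5 CPM after anti-PD-1 and 53.7, 43.4 and 45.5 CPM without it. Its log2 fold change was -0.93 (standard error 0.25, unadjusted p = 0.0012, adjusted p = 1 from edgeR), the smallest p of the 24 genes named by this rule, and it lay between -1.02 and -0.78 whichever tumor was left out. Sik1, a kinase induced by cyclic AMP, had 83.0, 88.0 and 74.7 CPM against 141, 104 and 115 CPM. Rgs10, a regulator of G protein signaling, had 7.82, 8.44 and 9.37 CPM against 12.1, 13.2 and 15.3 CPM. In each of these genes the 3 treated tumors lay close together and below the untreated range. Cdrt4 had the largest difference of the 12, with 0.409, 0.533 and 0.486 CPM against 1.76, 2.03 and 2.05 CPM and a log2 fold change of -2.03. The others were Ifngr2, mt-Co2, Cyren, Stk36, 2610008E11Rik, Plpbp, E030030I06Rik and Aamdc, with log2 fold changes from -0.89 to -0.35.

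The early-response genes as a list were mostly lower. Myc, a growth regulator, had 530, 525 and 458 CPM after anti-PD-1 and 614, 659 and 716 CPM without it, and Nr4a1, a receptor induced by many stimuli, had 201, 158 and 155 CPM against 272, 245 and 232 CPM. Both were lower in all treated tumors, with log2 fold changes of -0.40 and -0.54 at unadjusted p of 0.11 and 0.078. Fos had 6.72, 10.8 and 9.17 CPM against 24.6, 13.6 and 9.24 CPM, and replicate 3 overlapped the untreated range. Of 15 genes, 11 were lower, 2 (Dusp1 and Fos) at an unadjusted p under 0.05, where 1.17% of all genes were, and 3 were lower without overlap, where 2.93% of all genes were. Without anti-PD-1 replicate 1 or untreated replicate 1, 1 gene was lower at that threshold. The median log2 fold change was -0.35, and it was -0.41 for IgG against untreated tumors and 0.07 for anti-PD-1 against IgG.

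**Figure D3:**
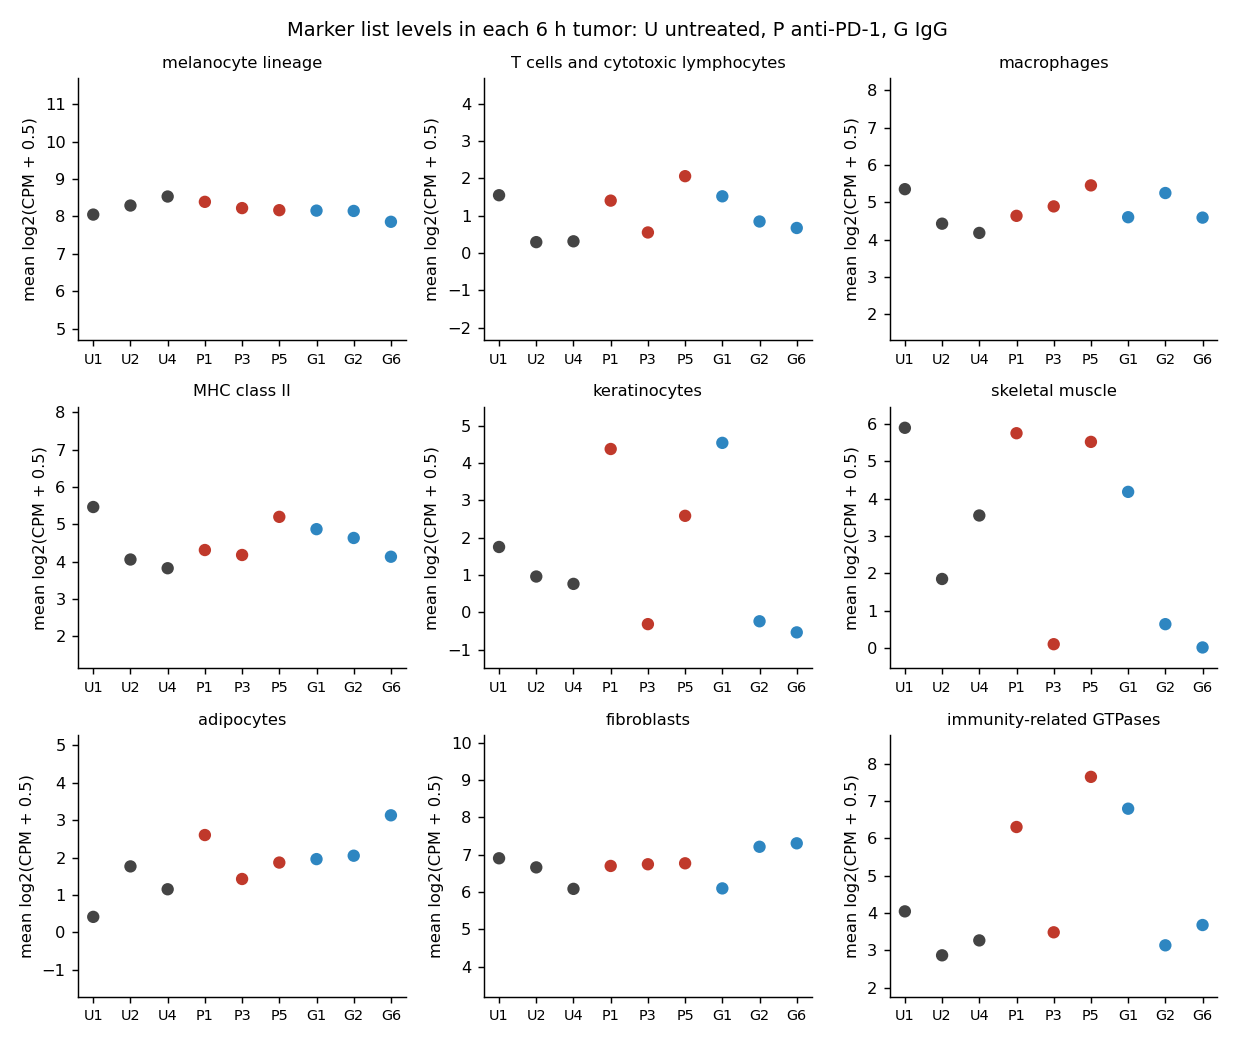
Level of 9 gene lists, as the mean over members of log2(CPM + 0.5), in each of 9 tumors at 6 h, with untreated (U), anti-PD-1 (P) and IgG (G) tumors marked by replicate number and axes of at least 7 log2 units. Melanocyte lineage genes vary little, from 7.86 to 8.53, whereas keratinocyte markers range from -0.54 to 4.54 and skeletal muscle from 0.02 to 5.90.

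Among the 6 h tumors, keratinocyte markers were highest in those that had high interferon genes. Krt5, a keratin of basal skin cells, had 35.3, 0 and 39.9 CPM in anti-PD-1 replicates 1, 3 and 5 and 3.86, 2.06 and 2.11 CPM in the untreated tumors. Dsp, a desmosome protein that was the most abundant of the list by CPM, had 71.2, 0.941 and 172 CPM against 11.95, 3.82 and 2.78 CPM. All 11 keratinocyte markers were higher in the comparison, with a median log2 fold change of 2.82. At an unadjusted p under 0.05, 2 were higher (0 without replicate 5 or untreated replicate 2 or 4), where 2.13% of all genes were. Their summed level ranged from 4.77 to 339 CPM after anti-PD-1 and from 16.3 to 45.5 CPM without treatment, and 5 of the 11 had 0 counts in anti-PD-1 replicate 3. With the level of these markers as a covariate, a setting chosen after seeing the data, the median log2 fold change of the immunity-related GTPases was 2.99 and that of the guanylate-binding proteins 2.63. Untreated tumors of 0 h had a mean log2(CPM + 0.5) of these markers from 1.35 to 8.76, against 0.76 to 1.75 in those of 6 h, and when they were added to the control the keratinocyte median became -2.83, whereas that of the immunity-related GTPases was 2.46.

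Genes of the hair shaft and its inner sheath were high in anti-PD-1 replicate 5 and far lower in the other 5 tumors of the comparison. Tchh, which encodes trichohyalin of the inner root sheath, had 1.41, 0.533 and 2501 CPM after anti-PD-1 and 1.32, 0.460 and 0.141 CPM without it. Krt27, a keratin of the same layer, had 4099 counts in replicate 5 and 0 counts in the other 5 tumors. The 57 keratin-associated proteins summed to 1213 CPM in replicate 5, to 1.92 and 2.95 CPM in replicates 1 and 3 and to 0.787 to 2.17 CPM in the untreated tumors. Of the 34 that were tested, 26 had an unadjusted p under 0.05, and this number was 0 without replicate 5. Among 23 hair keratins the sums were 1001 CPM in replicate 5 and at most 2.79 CPM in the other 5 tumors. In the other 24 tumors of the time course, the keratin-associated proteins reached 326 CPM in an untreated tumor of 0 h, which had an Igtp level of 27.3 CPM. The 7 genes that the Wald test of DESeq2 called (0.0261% of those tested) were Krtap2-4, Krtap3-2, Dsg4, S100a14, Ovol2, S1pr5 and Gm15937. All 7 had 0 counts in the 3 untreated tumors, and Ovol2, with 7 counts in replicate 5, and S1pr5, with 70 counts in replicate 1, were detected in 1 treated tumor each. The part of skin in the differences of the interferon genes was not tested beyond these values.

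**Figure D4:**
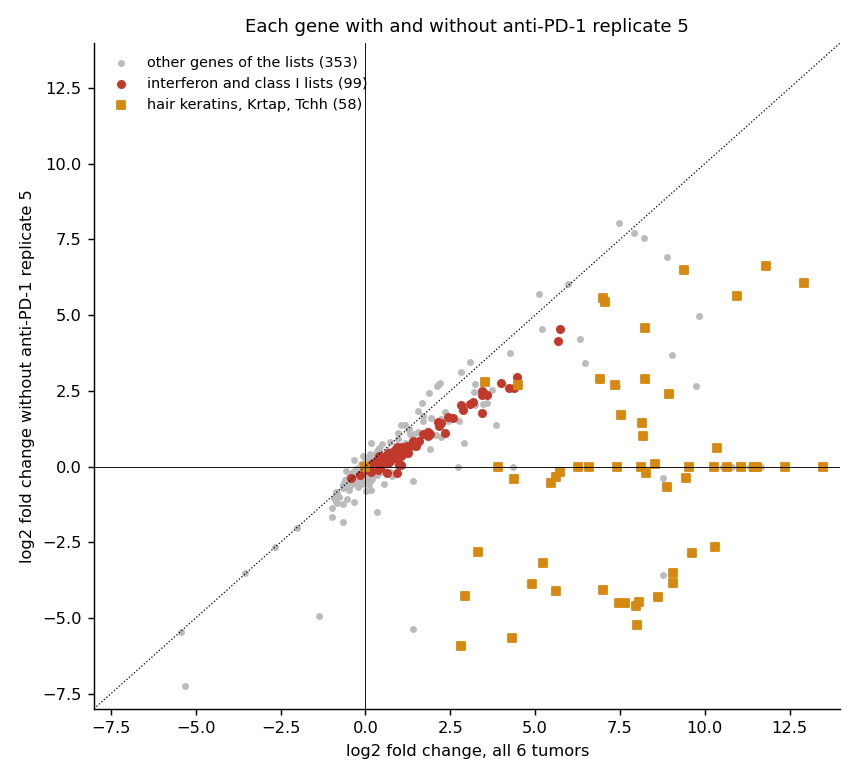
Log2 fold change (anti-PD-1 minus untreated at 6 h) of each named gene with all 6 tumors (x axis) and without anti-PD-1 replicate 5 (y axis), with genes of the interferon and class I lists in red, hair keratins, keratin-associated proteins and Tchh as orange squares and other genes in grey. Igtp has 3.47 with all tumors and 2.47 without replicate 5, Ifngr2 is negative in both at -0.43 and -0.38, and Tchh goes from 10.37 to 0.61.

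Melanocyte lineage genes, which mark the tumor cells, had similar levels in both groups. Dct, an enzyme of pigment synthesis, had 6147, 5451 and 4867 CPM after anti-PD-1 and 4903, 5731 and 6479 CPM without it, and Tyrp1 had 4290 to 5677 CPM against 3750 to 5217 CPM. The median log2 fold change over 14 melanocyte lineage genes was -0.03. Skeletal muscle was high in anti-PD-1 replicates 1 and 5 and in untreated replicate 1, with 325, 0.753 and 203 CPM of the myosin Myh4 after anti-PD-1 and 371, 21.6 and 62.9 CPM without treatment. The muscle list had a median log2 fold change of 0.24, which ranged from -0.34 to 2.18 when 1 tumor was left out and was -1.72 with the 0 h tumors added to the control. The adipocyte list had one of 1.11, which was -1.23 with the 0 h tumors added to the control. The 17 macrophage genes had a median of 0.21, for example 86.1, 123 and 142 CPM against 119, 102 and 92.4 CPM for the mannose receptor Mrc1. Without untreated replicate 1 that median was 0.82. Medians of 0.30 for 10 neutrophil genes, 0.16 for 9 B cell genes and -0.33 for 10 dendritic cell genes came with 1 gene at an unadjusted p under 0.05, the neutrophil chemokine Cxcl5. Cxcl5 was lower, with 0, 0 and 1 counts after anti-PD-1 and 23, 14 and 15 counts without it. Of all genes, 1.17% were lower at that threshold. Fibroblast genes had a median of 0.21, with 1352, 1668 and 1290 CPM of Col1a1 against 1754, 1169 and 718 CPM. Endothelial and erythrocyte medians were -0.0021 and -0.44.

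Among the remaining lists, several had medians a little below that of all genes. All 13 mitochondrially encoded genes were lower, with a median log2 fold change of -0.44. At an unadjusted p under 0.05, 2 were lower (0 to 3 when 1 tumor was left out), where 1.17% of all genes were. Cytochrome oxidase subunit mt-Co1 had 13423, 12687 and 11322 CPM after anti-PD-1 and 13180, 19401 and 20845 CPM without it, so untreated replicates 2 and 4 were high and replicate 1 lay among the treated tumors. Of 39 cytosolic ribosomal protein genes, 38 were lower, with a median of -0.21. At an unadjusted p under 0.05, 0 were lower (4 without untreated replicate 1), where 1.17% of all genes were. Of all 26848 genes tested, 13989 were lower. Hypoxia genes were lower in 12 of 13 with a median of -0.32, for instance the glycolytic enzyme Ldha with 1019, 1114 and 1185 CPM against 1213, 1337 and 1371 CPM. With a replicate block the hypoxia median was 0.024, with 8 genes higher and 5 lower. Mitosis genes had a median of -0.15, and the proliferation marker Mki67 had 1711, 1545 and 1196 CPM against 1225, 1616 and 1761 CPM. In ribosomal and mitosis level, untreated replicates 2 and 4 held ranks 1 and 2 of 30 tumors, and untreated replicate 1 ranks 25 and 22. For IgG against untreated tumors, the mitochondrial, ribosomal, hypoxia and mitosis medians were -0.65, -0.31, 0.18 and -0.18. For anti-PD-1 against IgG they were 0.27, 0.08, -0.46 and 0.01. Stress response and circadian clock genes had medians of -0.03 and 0.01. Inflammatory cytokines and CC chemokines had a median of 0.55 over 20 genes, and it was -0.20 without anti-PD-1 replicate 5. Ccl3, a macrophage chemokine, was the 1 gene of that list with an unadjusted p under 0.05, at 3.17, 0.753 and 7.23 CPM against 1.5997, 0.460 and 0 CPM. It was higher, where 2.13% of all genes were at that threshold.

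The IgG tumors of 6 h share the untreated controls with the comparison and are given side by side. In Igtp they had 204, 12.97 and 17.2 CPM in replicates 1, 2 and 6. IgG replicate 1 stood with anti-PD-1 replicates 1 and 5, and the other two stood with the untreated tumors. The same held for Irf1, at 117, 25.3 and 15.7 CPM, and for Cd274, at 55.97, 11.96 and 18.1 CPM. IgG replicate 1 also had 71.9 CPM of Krt5 and 54.6 CPM of Tchh. The median log2 fold change of the immunity-related GTPases was 2.04 for IgG against untreated tumors and 1.17 for anti-PD-1 against IgG, and that of the type I interferon-stimulated genes was 0.58 and 0.29. Dusp1 and Ifngr2, which were lower after anti-PD-1, had log2 fold changes of -0.65 and -0.55 for IgG against untreated tumors and -0.28 and 0.13 for anti-PD-1 against IgG. Across all genes, 0 had an adjusted p under 0.05 in edgeR in both comparisons. At an unadjusted p under 0.05, 948 (3.53%) were higher and 508 (1.89%) lower for IgG against untreated tumors, and 209 (0.778%) were higher and 966 (3.60%) lower for anti-PD-1 against IgG.

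**Figure D5:**
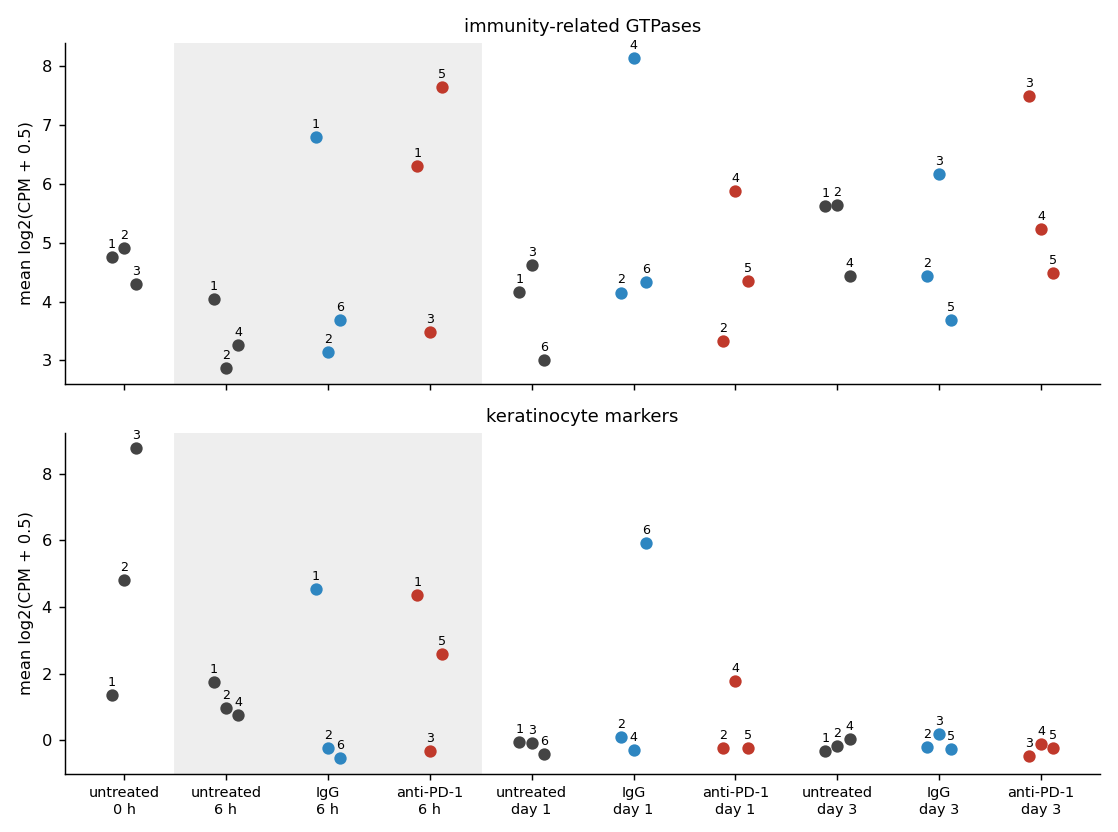
Mean log2(CPM + 0.5) of the 10 immunity-related GTPases (top) and of 11 keratinocyte markers (bottom) in each of 30 WT tumors, by group, with replicate numbers at the points and the 6 h groups shaded. The 3 untreated tumors of 6 h lie at 4.04, 2.87 and 3.27 in the upper panel, against 7.65 for anti-PD-1 replicate 5 and 8.13 for IgG replicate 4 of day 1.

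Set among all 30 WT tumors of the time course, the 3 anti-PD-1 tumors of 6 h had ranks 5, 25 and 2 for the level of the immunity-related GTPases, counted from the highest. Their levels, as the mean log2(CPM + 0.5) of the list, were 6.30, 3.48 and 7.65, which is 5.81 ± 2.12 (SD, n = 3). The untreated tumors of 6 h were at ranks 22, 30 and 27, with 3.39 ± 0.60 (SD, n = 3). Untreated tumors were all higher at 0 h (4.30 to 4.91) and at day 3 (4.44 to 5.63) than at 6 h, and at day 1 (3.01 to 4.61) the ranges overlapped. The highest level, 8.13, was in IgG replicate 4 of day 1, whose keratinocyte markers ranked 25, and the third, 7.49, in anti-PD-1 replicate 3 of day 3, whose keratinocyte markers ranked 29. Untreated replicate 3 of 0 h ranked 1 for keratinocyte markers and 19 for the GTPases. In some other tumors the ranks were close. Anti-PD-1 replicates 5 and 1 of 6 h ranked 2 and 5 for the GTPases and 6 and 5 for keratinocyte markers. IgG replicate 1 of 6 h ranked 4 for both, and anti-PD-1 replicate 4 of day 1 ranked 7 for both. The relation between the lists was not tested. The 4 tumors with most Ifng, at 6.95, 3.72, 2.62 and 1.58 CPM, ranked 1, 2, 3 and 5 for the GTPases. The tumor ranked 5 for Ifng, untreated replicate 3 of 0 h at 0.802 CPM, ranked 19 for the GTPases. IgG replicate 1 of 6 h, which ranked 4 for the GTPases, ranked 8 for Ifng at 0.672 CPM. Whether Ifng and the GTPase level are related was not tested.

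The same contrast of anti-PD-1 with untreated tumors was available at day 1 and day 3, with other mice in both arms. The median log2 fold change of the immunity-related GTPases was 0.72 at day 1 and 1.01 at day 3, and that of the guanylate-binding proteins was 0.88 and 1.09. For Irf1 the log2 fold change was 0.26 and 0.97, against 2.24 at 6 h, and for Dusp1 it was -0.09 and 0.47, against -0.93. The difference between times was tested for every gene with an interaction term, and 0 genes had an adjusted p under 0.05 at either day. At an unadjusted p under 0.05, the contrast was higher in 379 genes (1.41%) and lower in 558 (2.08%) at day 1 than at 6 h, and higher in 277 (1.03%) and lower in 848 (3.16%) at day 3. Of the 10 immunity-related GTPases and the 11 guanylate-binding proteins, 0 were among them.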

How the data were processed

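RNA of 48 whole tumors was measured by strand-specific paired-end sequencing, and 30 libraries of WT mice in 10 groups of 3 entered the analysis. The authors detected adapters with BBMerge 37.02, removed them with cutadapt 1.8.1, aligned reads to mm10 with STAR 2.7.7a and estimated reads per gene with RSEM 1.3.0 on GENCODE vM21, and the name of the deposited table refers to another counting program. The table deposited by the authors gives unnormalized counts, as whole numbers, for 55450 genes. Conditions were taken from titles. All 30 libraries were fitted in edgeR 4.0.16 (R 4.3.3) with TMM and 1 coefficient per group, with 20 residual degrees of freedom. Genes passed filterByExpr (minimum count 10), and the quasi-likelihood F-test was adjusted by the Benjamini-Hochberg method (threshold 0.05). Tumors of the same group varied with a common coefficient of variation of 0.671. Standard errors are the log2 fold change divided by the square root of F. The code was tested on simulated data. The 29 gene lists hold 421 genes, of which 414 were tested. Members and lists were chosen with earlier results of these data known. Named genes were any gene past the threshold, 12 per direction by smallest p among protein-coding genes with a mean of at least 1 CPM and no overlap, genes called by DESeq2 1.42.0, the 3 most abundant tested members by CPM and other members by role of each list, and Pdcd1, Cd274, Pdcd1lg2, Nos2, Ifng, Ifnb1 and Irf1, and not every gene the rule covers is printed (1 is not reported here). Libraries were no copies of each other, with a chi-square per gene of 18.1 or more within both groups. Only replicate number 1 was shared between the groups, and same-numbered tumors did not deviate together (median correlation -0.005 over 65 pairs, 0.022 for this pair). Alternatives were DESeq2 size factors, no filter, a replicate block, the 6 libraries alone, the Wald test of DESeq2, untreated tumors of 0 h and 6 h pooled, sensory receptor background as a covariate, each tumor left out and, chosen after seeing the data, keratinocyte markers as a covariate.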

Additional observations from a re-analysis of the deposited data

How the results depend on the processing

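No gene had an adjusted p under 0.05 in edgeR, and alternatives gave 7 with the Wald test of DESeq2, 75 without a filter on low counts and 0 to 1 (Pkd1l3) when each tumor was left out. Genes higher at an unadjusted p under 0.05 numbered 573, but 958 without a filter, 291 with the 6 libraries alone, 248 with a replicate block, and from 321 (without untreated replicate 4) to 922 (without untreated replicate 1) when each tumor was left out, with 366 without anti-PD-1 replicate 5. Lower genes numbered 313, but 568 with the background covariate, 113 with the 6 libraries alone, 529 with 0 h and 6 h untreated tumors pooled and from 194 (without anti-PD-1 replicate 3) to 386 otherwise. The pooled control moved the median log2 fold change to 0.15 for T cells and cytotoxic lymphocytes, -0.15 for neutrophils, -0.11 for B cells, -0.30 for fibroblasts, -2.83 for keratinocytes and -1.23 for adipocytes. The replicate block, which rests on 1 shared number that did not pair the tumors, moved it to 0.15 for neutrophils, -0.53 for B cells, -1.50 for erythrocytes and -0.38 for endothelium. The background covariate gave 0.018 for neutrophils and -0.10 for B cells, and the keratinocyte covariate, chosen after seeing the data, gave -0.051 for B cells and 0.66 for keratinocytes. Muscle had 1.88 with the background covariate, 1.08 with the replicate block, -1.39 with the keratinocyte covariate and -1.72 with the pooled control. Leaving out 1 tumor moved the medians over the ranges -0.34 to 2.18 for skeletal muscle, 0.018 to 1.02 for checkpoint genes, -0.51 to 0.85 for MHC class II, 0.44 to 1.85 for T cells and cytotoxic lymphocytes, -0.20 to 0.96 for inflammatory cytokines and CC chemokines, -0.0055 to 0.82 for macrophages, 0.024 to 0.47 for neutrophils, -0.61 to 0.24 for dendritic cells, -0.26 to 0.30 for B cells and -0.71 to 0.41 for erythrocytes. Direction reversed for Ifngr1 (-0.052 with the replicate block, -0.15 with the pooled control), for Cpm (-0.27 with the pooled control), and, without anti-PD-1 replicate 5, for Pdcd1lg2 (-0.090, up to 1.05 with other tumors left out) and Nos2 (-0.18, up to 0.61). The causes were not tested. Of 60 genes followed, 56 never changed direction under the alternatives that gave them a value, which were all 14 except that 4 (Ifng, Psors1c2, Sp6 and S100a3) had none with the 6 libraries alone. Genes named for having no overlap between groups could hardly reverse when 1 tumor was left out, so for them the count says little about stability. With 3 tumors a group and a coefficient of variation of 0.671, small differences were not detectable, and counts of 0 allow up to 3. Large differences could also fail to pass. The immunity-related GTPases had a median log2 fold change of 3.27 and 0 members at an adjusted p under 0.05 in edgeR.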
